A study of Rattus norvegicus with 9 samples.

Results

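The 30 genes described here encode the membrane and membrane skeleton of the red cell, the enzymes that red cells carry, and the transcription factors and maturation proteins of erythroid cells, the precursors of red cells. They were chosen by symbol. Of the 30 symbols, 29 matched a line of the deposited table, out of 22077 intact genes. Ca2 had no line of its own. RefSeq gives Ca2 as another name of Car2, carbonic anhydrase 2, whose values are given once below and are in no count.

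The samples were peripheral blood mononuclear cells, the fraction of nucleated blood cells that is left once most granulocytes and red cells are removed, from Sprague-Dawley rats of wild-type genotype. The control group was in normoxia at day 0 (n = 3), and the other groups were in Sugen-hypoxia at day 28 (n = 3) and at day 56 (n = 3). Sugen-hypoxia, a rat model of pulmonary hypertension, pairs a blocker of VEGF receptors with low oxygen. All controls were taken at day 0, so treatment, day and age cannot be told apart, and the labels give no ages and do not say whether replicates were separate animals. The p-values therefore measure the spread between these libraries, which may be technical.

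The mature red cell has no nucleus, and its shape rests on a net of spectrin that is tied to the membrane by ankyrin and protein 4.1 complexes around the anion exchanger band 3. Erythroblasts make these proteins under the control of GATA1, TAL1 and KLF1, then condense and expel the nucleus and clear their mitochondria. The young red cells that result, reticulocytes, still hold messenger RNA, most of it globin. Blood mononuclear cell preparations can hold such cells.

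The libraries differed in how much of their RNA came from the globin loci, and the members have to be read beside that share. Genes of the globin loci took 43.1%, 49.4% and 56.4% of exon reads in normoxia replicates 1 to 3, then 1.43%, 4.84% and 29.0% at day 28 and 40.6%, 43.4% and 44.6% at day 56. Day 28 replicate 3 thus stood apart from the other day 28 libraries. The share of reads in introns also moved, from between 5.37% and 14.6% in normoxia to between 14.2% and 24.9% at day 28 and between 11.9% and 16.9% at day 56. Normoxia replicate 1 had the highest intron share and the lowest globin share of its group. Depth ran from 22148400 to 39947430 exon reads. In the column headers the day 28 libraries have the codes 068 to 070, while normoxia and day 56 share the codes 046 and 047 and 061 to 064. The labels do not say what these codes stand for. Whatever sets the day 28 codes apart cannot be told apart from the day itself.

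At day 28 the members lay far below normoxia in most libraries, but none passed the test. At day 56 the libraries of 24 of the 29 members overlapped with normoxia, and 20 log2 fold changes were below 0 and 9 above. The mean level was still 0.375 times normoxia for Ahsp and 0.484 times for Sptb. A missed test does not show a return to normoxia. Only Tmcc2, which rose about 10-fold, and Xpo7, which also rose, passed the test at day 56. For orientation, promoters of members with large gaps at day 28 are shown first. By rule these were the 6 members with the highest normoxia RPKM (reads per kilobase of exon, scaled to the mapped reads of the library) among the 10 members whose mean RPKM at day 28 was under 0.25 times that in normoxia. They were Ahsp, Rhd, Hemgn, Add2, Sptb and Kel. Ahsp is named only. Each run gives the 250 bases before the start of the gene, 5′ to 3′ on the gene's own strand, in RefSeq's GRCr8 build. Capitals mark the motifs AGATAA and TGATAA (bound by GATA factors), CCACCC and CCACACCC (bound by KLF1) and TGAGTCA (the core of the NF-E2 motif) on either strand.
Rhd (chr5:152370950-152371199, plus strand): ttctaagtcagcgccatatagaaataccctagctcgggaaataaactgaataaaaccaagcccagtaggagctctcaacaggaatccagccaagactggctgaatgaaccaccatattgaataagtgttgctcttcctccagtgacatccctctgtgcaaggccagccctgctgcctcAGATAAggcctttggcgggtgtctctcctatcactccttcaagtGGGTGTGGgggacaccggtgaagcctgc
Hemgn start 1 (chr5:65494190-65494439, minus strand): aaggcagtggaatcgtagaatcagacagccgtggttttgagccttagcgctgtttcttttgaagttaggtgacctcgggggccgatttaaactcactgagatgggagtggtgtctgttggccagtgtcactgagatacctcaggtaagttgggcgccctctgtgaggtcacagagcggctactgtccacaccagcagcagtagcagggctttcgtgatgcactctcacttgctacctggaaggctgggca
Hemgn start 2 (chr5:65485822-65486071, minus strand): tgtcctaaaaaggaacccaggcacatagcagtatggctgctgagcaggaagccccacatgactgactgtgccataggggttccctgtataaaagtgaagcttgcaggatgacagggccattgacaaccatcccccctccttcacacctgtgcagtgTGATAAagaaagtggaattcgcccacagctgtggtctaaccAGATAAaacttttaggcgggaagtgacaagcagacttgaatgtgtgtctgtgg
Add2 (chr4:120054628-120054877, plus strand): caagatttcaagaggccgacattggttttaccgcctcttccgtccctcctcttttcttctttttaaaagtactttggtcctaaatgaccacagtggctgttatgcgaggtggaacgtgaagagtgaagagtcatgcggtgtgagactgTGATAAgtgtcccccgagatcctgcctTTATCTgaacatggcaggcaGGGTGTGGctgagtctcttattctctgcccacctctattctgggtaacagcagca
Sptb (chr6:101170279-101170528, minus strand): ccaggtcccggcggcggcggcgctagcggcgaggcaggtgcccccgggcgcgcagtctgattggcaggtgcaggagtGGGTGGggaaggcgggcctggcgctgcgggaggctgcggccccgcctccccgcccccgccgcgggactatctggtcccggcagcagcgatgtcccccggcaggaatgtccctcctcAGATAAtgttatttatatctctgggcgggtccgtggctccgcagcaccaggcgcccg
Kel (chr4:71551774-71552023, minus strand): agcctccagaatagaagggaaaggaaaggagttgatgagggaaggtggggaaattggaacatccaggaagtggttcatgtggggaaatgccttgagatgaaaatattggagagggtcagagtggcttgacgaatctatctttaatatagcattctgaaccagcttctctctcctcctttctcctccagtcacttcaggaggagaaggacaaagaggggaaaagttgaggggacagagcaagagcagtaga
A GATA motif is present in the windows of Rhd, Hemgn (second start), Add2 and Sptb, and the 8-base KLF1 motif CCACACCC in those of Rhd and Add2. Kel and the first start of Hemgn hold none of the marked motifs. The promoter of Tmcc2, the member that changed most at day 56, was added after its values were seen, and it too has none of them.
Tmcc2 (chr13:46383863-46384112, minus strand): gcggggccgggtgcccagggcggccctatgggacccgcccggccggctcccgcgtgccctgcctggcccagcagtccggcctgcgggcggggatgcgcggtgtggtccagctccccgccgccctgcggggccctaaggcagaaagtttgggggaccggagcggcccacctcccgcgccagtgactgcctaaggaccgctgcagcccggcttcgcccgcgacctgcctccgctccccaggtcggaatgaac
Over the 22 members with a window (26 windows, since Hemgn and Tspo2 have several starts), 12 windows, 46.2% of them, held AGATAA or TGATAA, against 16.9% of all 33469 windows of the same length. The 8-base KLF1 motif was in 2 of 26 windows (7.69%), against 2.84% of all, and TGAGTCA in 2 of 26 (7.69%), against 4.05%. The shorter CCACCC (5 of 26, 19.2%, against 26.1%) and the E-box CANNTG bound by TAL1 (16 of 26, 61.5%, against 65.5%) were not more frequent in the members' windows. CANNTG was searched but is not capitalized, since most windows hold it. These matches describe letters and not bound sites.

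**Figure D1:**
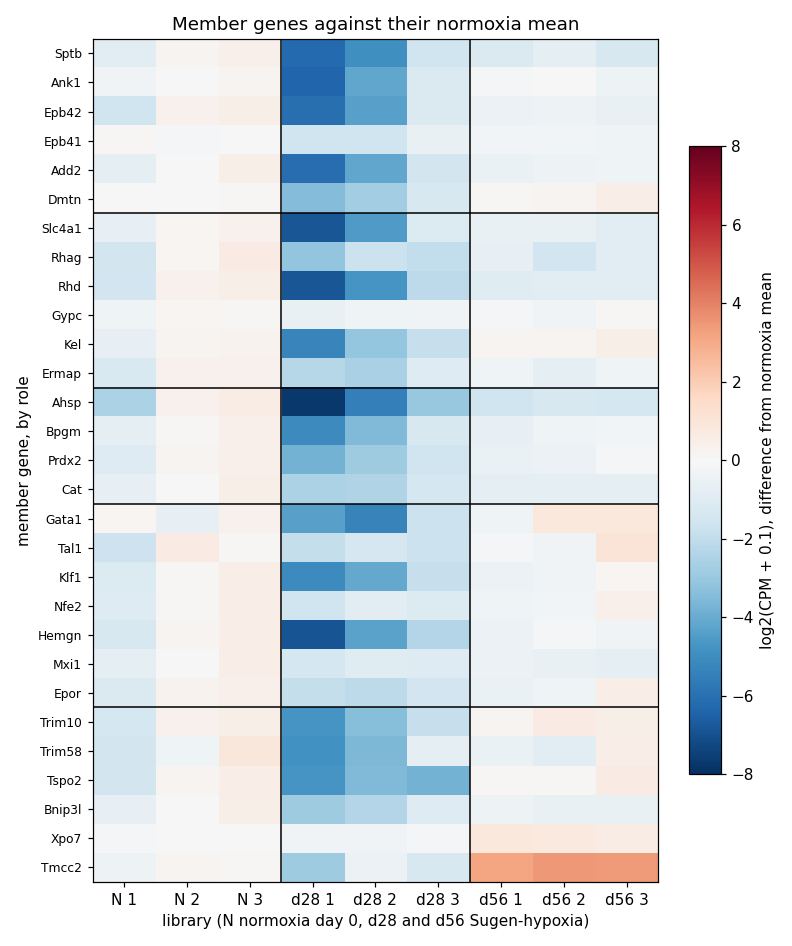
Each row is a member gene, grouped by role from the membrane skeleton at the top to late maturation at the bottom, and each column is a library; color gives log2(CPM + 0.1) minus its value at the normoxia mean. Day 28 replicates 1 and 2 are the darkest blue, day 28 replicate 3 is paler, and Tmcc2 stands out in red in the 3 day 56 libraries.

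The first question was how the members stood at day 28 against normoxia. Levels are CPM, counts per 1000000 exon reads, with library sizes scaled by TMM factors. These factors ran from 0.573 in normoxia replicate 3 to 1.70 in day 28 replicate 1. All 29 members had a negative log2 fold change, with a median of -2.48 against -0.01 over all 12447 genes tested, and a range from -5.02 (Tspo2) to -0.21 (Xpo7). In 23 of the 29, every day 28 library lay below every normoxia library, where 11.8% of all genes tested did so. None of the 29 passed edgeR's quasi-likelihood test at an adjusted p of 0.05 (0.129% of all genes did, 16 genes). At an unadjusted p under 0.05 there were 26 members, against 28.8% of all genes, and the lowest adjusted p was 0.0534. DESeq2 called 21 members (9.79% of all genes). The count thus moved with the method, and it also moved when either of 2 libraries was left out. Without normoxia replicate 1 edgeR called 23 members (45.2% of all genes were called), without day 28 replicate 3 it called 21 (3.07%) and the median was -3.85, and without both, a choice made after seeing the data, 27 (46.4%), with a median of -4.06. With the log2 globin share of each library as a covariate no member was called (0.00803%, 1 gene) and the median was -0.89. That share was lower in every day 28 library than in every other library, so the fit cannot separate it from the day. A term for the share of intron reads gave a median of -0.71.

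Within the groups most members ranked the libraries alike. In normoxia, 26 of the 29 were lowest in replicate 1, the library with the least globin. At day 28, 25 were lowest in replicate 1 and 23 were highest in replicate 3, the libraries with the least and the most globin. The share of all genes with these ranks was not counted. A trait of the members can therefore not be told apart here from a shift of the whole library. In bulk RNA, fewer erythroid cells and less RNA per cell cannot be told apart.

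The membrane skeleton genes had a median log2 fold change of -2.56 at day 28 over 6 members. Sptb, the beta chain of erythroid spectrin, was at 166, 369 and 417 CPM in normoxia, 4.18, 10.5 and 104 at day 28 and 143, 187 and 130 at day 56. Day 28 replicates 1 and 2 were far below the rest, and replicate 3 came nearer to the lowest normoxia library without reaching it (log2 fold change -3.01, SE 0.99, adjusted p = 0.111). Ank1, the ankyrin that ties spectrin to band 3, had 25.2, 30.3 and 35.1 CPM in normoxia, 0.266, 1.57 and 13.6 at day 28 and 26.5, 30.4 and 22.6 at day 56. Its normoxia and day 56 libraries overlapped, and all of them were above day 28. Add2, the beta subunit of adducin, which caps actin at the skeleton's junctions, had 130, 214 and 294 CPM in normoxia, 3.01, 12.1 and 75.9 at day 28 and 149, 161 and 170 at day 56.

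The other skeleton genes showed smaller gaps or larger spread. Epb42, protein 4.2, overlapped between normoxia and day 28, because its normoxia replicate 1 (33.5 CPM, against 127 and 138) was below day 28 replicate 3 (44.4, against 1.41 and 4.82). Epb41, protein 4.1R, which other blood cells also make, was at 440, 370 and 423 CPM in normoxia, 138, 134 and 275 at day 28 and 353, 352 and 328 at day 56. Its log2 fold change at day 28 was -1.17 (SE 0.28, adjusted p = 0.0796), and it was lower than every normoxia library at day 56 as well (log2 fold change -0.26, SE 0.28, adjusted p = 0.556). Dmtn, dematin, an actin-bundling protein, was scarce, with 92, 101 and 63 reads in normoxia, 10, 19 and 49 at day 28 and 111, 106 and 170 at day 56. Its day 56 libraries (4.14 to 5.70 CPM) lay above all of normoxia (3.72 to 4.09), but the difference missed the threshold (0.30 on the log2 scale, SE 0.49, adjusted p = 0.706).

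Among the transporters and blood group proteins the median at day 28 was -2.35 over 6 members. Slc4a1, band 3 itself, had 21089, 40992 and 27135 reads in normoxia, 440, 2345 and 20286 at day 28 and 24562, 21894 and 21665 at day 56. As CPM this was 878, 1509 and 1761, then 11.7, 59.5 and 649, then 916, 920 and 726. The day 28 libraries spanned a wide range, and the highest of them was below the lowest of the other groups (log2 fold change -2.53, SE 1.09, adjusted p = 0.163). Rhd, the Rh blood group protein, was at 115, 412 and 454 CPM in normoxia, 2.77, 12.3 and 75.7 at day 28 and 164, 176 and 176 at day 56 (day 28 against normoxia -3.44, SE 1.00, adjusted p = 0.0950). Rhag, its partner in the Rh complex and an ammonia channel, was at 7.70, 24.0 and 33.8 CPM, then 2.34, 6.55 and 5.56, then 13.6, 7.61 and 11.6. Unlike Rhd, Rhag was highest in replicate 2 at day 28.

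Kel, the metalloprotease that carries the Kell blood group, had 56.6, 107 and 109 CPM in normoxia, 2.26, 10.3 and 25.0 at day 28 and 103, 104 and 126 at day 56, so that day 28 alone was low. Ermap, the carrier of the Scianna blood group, was scarce at 1.62, 5.04 and 4.93 CPM in normoxia and 0.718, 0.558 and 1.85 at day 28, and these groups overlapped. Gypc, glycophorin C, which anchors protein 4.1 and is also made by lymphocytes, was nearly level. It had 15.5, 22.05 and 20.8 CPM in normoxia, 12.8, 15.6 and 16.0 at day 28 and 18.1, 15.8 and 20.5 at day 56. Its log2 fold change at day 28 was -0.40 (SE 0.19, adjusted p = 0.195), and 90.2% of its reads mapped uniquely.

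The hemoglobin chaperone and the enzymes had a median of -2.49 at day 28 over 4 members, and all 4 were lower in every day 28 library. Ahsp, which holds free alpha globin, had 2566, 21816 and 14665 reads in normoxia, 108, 545 and 2392 at day 28 and 5486, 6051 and 7117 at day 56. In CPM the normoxia libraries were at 107, 803 and 952, the day 28 libraries at 2.87, 13.8 and 76.5 and the day 56 libraries at 205, 254 and 239. Normoxia replicate 1 was thus below every day 56 library, and the SE was wide (day 28 against normoxia -4.32, SE 1.14, adjusted p = 0.0892). Bpgm, which makes the 2,3-bisphosphoglycerate that lowers hemoglobin's oxygen affinity, had 952, 1798 and 2214 CPM in normoxia, 49.0, 142 and 685 at day 28 and 1056, 1314 and 1401 at day 56.

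Prdx2 and Cat remove hydrogen peroxide. Prdx2, an abundant red cell peroxiredoxin, stood at 489, 1156 and 1350 CPM in normoxia, 73.1, 137 and 328 at day 28 and 684, 724 and 889 at day 56. Cat, catalase, stood at 157, 240 and 337 CPM, then 42.1, 45.6 and 92.6, then 141, 148 and 150. It shared the lowest adjusted p of the members at day 28 with Tspo2 (log2 fold change -2.03, SE 0.35, adjusted p = 0.0534). At day 56 it was below every normoxia library (log2 fold change -0.74, SE 0.34, adjusted p = 0.174), and with Epb41 it was 1 of 2 members of which that was true (14.9% of all genes). Car2, which is not counted, had 272, 652 and 833 CPM in normoxia, 20.1, 44.1 and 169 at day 28 and 356, 388 and 454 at day 56.

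The transcription factors and the erythropoietin receptor had a median of -1.92 at day 28 over 7 members. Klf1, the activator of adult beta globin and of many red cell membrane genes, had 14.7, 34.4 and 47.1 CPM in normoxia, 0.824, 1.78 and 8.79 at day 28 and 23.3, 26.2 and 35.0 at day 56 (day 28 against normoxia -3.09, SE 0.77, adjusted p = 0.0826). Hemgn, hemogen, an erythroid nuclear protein, had 75.8, 216 and 268 CPM, then 1.46, 9.62 and 36.2, then 137, 166 and 154. Both were clearly separated at day 28 in these libraries, without passing the test (Hemgn -3.57, SE 0.92, adjusted p = 0.0850). Gata1, the central erythroid factor, had 108, 70 and 78 reads in normoxia, 4, 0 and 36 at day 28 and 84, 173 and 217 at day 56. None of its reads were counted as uniquely mapped, so its values are uncertain.

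Tal1, Nfe2, Mxi1 and Epor moved less. Tal1, a partner of GATA1, had 21.0, 107 and 72.5 CPM in normoxia, 17.9, 26.1 and 20.6 at day 28 and 63.2, 55.1 and 135 at day 56, and overlapped between normoxia and day 28. Nfe2, the p45 subunit of NF-E2, which platelets' precursors also use, had 77.7, 174 and 234 CPM, then 52.9, 89.1 and 77.0, then 130, 141 and 215, with the same overlap. Mxi1, a MAX partner that opposes MYC and is made in many cells, had 62.6, 98.6 and 145 CPM, then 38.6, 51.1 and 49.8, then 72.2, 67.4 and 63.04 (day 28 against normoxia -1.13, SE 0.27, adjusted p = 0.0799). Epor, the erythropoietin receptor, was scarce, with 41, 131 and 78 reads in normoxia, 36, 32 and 40 at day 28 and 71, 73 and 167 at day 56. In CPM its day 28 libraries (0.812 to 1.28) stayed below all of normoxia (1.71 to 5.06).

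The late maturation genes held both the largest and the smallest day 28 differences. Tspo2, a membrane protein of maturing erythroblasts that handles cholesterol, had 21, 81 and 59 reads in normoxia, 0, 5 and 3 at day 28 and 73, 65 and 121 at day 56. Day 28 was nearly empty in all 3 libraries, replicate 3 with its 29.0% globin included (3 reads there correspond to 0.0959 CPM). The log2 fold change at day 28 was -5.02 (SE 0.78, adjusted p = 0.0534). Trim10 and Trim58 are ubiquitin ligase family proteins of late erythroblasts. Trim10 had 5.37, 18.3 and 19.7 CPM in normoxia, 0.452, 1.29 and 3.998 at day 28 and 16.8, 22.4 and 20.3 at day 56. Trim58 had 4.04, 8.61 and 20.7 CPM, then 0.293, 0.812 and 6.36, then 7.65, 5.97 and 16.4, and overlapped in every comparison.

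Bnip3l, the receptor through which reticulocytes clear mitochondria, had 524, 813 and 1187 CPM in normoxia, 119, 163 and 411 at day 28 and 641, 561 and 563 at day 56 (day 28 against normoxia -1.87, SE 0.47, adjusted p = 0.0829). Xpo7, a nuclear export receptor that works during chromatin condensation in erythroblasts, was within a narrow band at 72.7, 79.3 and 75.9 CPM in normoxia and 62.1, 63.7 and 71.8 at day 28. These groups did not overlap, but the log2 fold change was only -0.21 (SE 0.14, adjusted p = 0.345). For Xpo7 and Gypc the direction at day 28 depended on the scaling. In the authors' RPKM, which is scaled to all mapped reads with globin included, Xpo7 averaged 14.3 at day 28 against 9.89 in normoxia, and Gypc 7.11 against 5.499. The other 27 members were lower at day 28 in mean RPKM too. Of these, Tmcc2, Mxi1, Epb41 and Rhag did not overlap between normoxia and day 28 in CPM but did in RPKM.

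**Figure D2:**
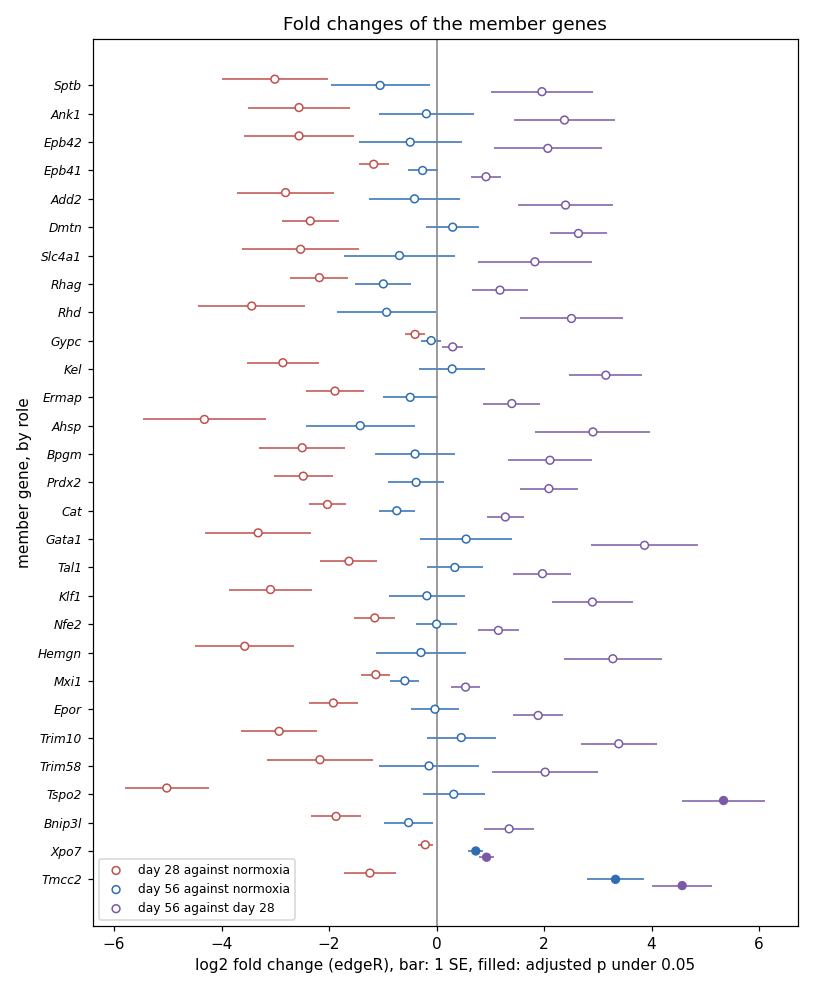
Log2 fold changes of the 29 members in the 3 comparisons, with bars of 1 SE and filled points for an adjusted p under 0.05 by edgeR. All day 28 points lie left of 0 and are open; the filled points belong to Tmcc2 and Xpo7 at day 56 against normoxia, and to Tmcc2, Xpo7 and Tspo2 at day 56 against day 28.

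The second question was where the members stood at day 56 against the same normoxia libraries. Of the 29, 2 rose and none fell at an adjusted p of 0.05, beside 7.12% of all genes (426 higher, 460 lower). These were also the only 2 members at an unadjusted p under 0.05 (30.9% of all genes), and DESeq2 called 2 higher and 0 lower (13.8% of all genes). The median over the members was -0.26, against -0.04 over all genes. It ran from -0.52 to -0.06 when 1 library was left out, the ends being without normoxia replicate 1 and without normoxia replicate 3. When the fit carried a term for the share of intron reads, it turned to 0.87, with 25 of 29 members above 0. In 24 members the libraries of the groups overlapped. The members whose day 56 libraries all lay above normoxia were Dmtn, Tmcc2 and Xpo7, 3 of 29, where 15.6% of all genes did so. In a fit of only the 4 libraries with codes 061 to 064, added after seeing the data, 2 members were higher and 14 lower, with 48.6% of all genes called. That fit leaves out normoxia replicate 1 and day 56 replicate 1. Without normoxia replicate 1 alone, 2 were higher and 3 lower (43% of all genes called).

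Tmcc2, named for its transmembrane and coiled-coil domains, was the member that changed most. Its gene lies on chromosome 13 at 49132666 to 49169918 (rn6). It had 3903, 6984 and 3667 reads in normoxia, 1125, 6249 and 2803 at day 28 and 51376, 56593 and 68746 at day 56. In CPM these were 163, 257 and 238 (219 ± 49.96, SD, n = 3), then 29.9, 159 and 89.6 (92.7 ± 64.4, SD, n = 3), then 1916, 2378 and 2304 (2199 ± 248, SD, n = 3). All 3 day 56 libraries were far above every other library. The normoxia and day 28 libraries did not overlap in CPM, but in RPKM day 28 replicate 2 (47.4) was above all of normoxia (33.1 to 41.6). Against normoxia the log2 fold change was 3.33 (SE 0.53, adjusted p = 0.0120), a ratio of mean CPM of 10.04.

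The size of that rise moved little with the processing. Over 21 alternatives the log2 fold change of Tmcc2 ran from 3.17 to 3.73, and the test was passed in 18. It was missed without normoxia replicate 2 (adjusted p = 0.0549), without normoxia replicate 3 (0.0535) and without day 56 replicate 2 (0.0537). All of its exon reads mapped uniquely. Intron reads were 2.08% to 2.91% of its reads in normoxia, 6.58% to 7.71% at day 28 and 5.35% to 5.46% at day 56.

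By the authors' RPKM, which allows genes of different length to be compared, Tmcc2 ranked 11 among the members in normoxia (36.6 ± 4.39 RPKM, SD, n = 3). It ranked 8 at day 28 (26.5 ± 19.3) and 3 at day 56 (438 ± 52.9). Only Prdx2 (639 ± 77.8) and Bpgm (488 ± 67.5) had higher means at day 56, and the SDs of Bpgm and Tmcc2 overlapped. Tmcc2 made up 2.19% to 3.53% of all member reads in normoxia and 26.6% to 29.6% at day 56. In day 28 replicates 1 to 3 it made up 4.46%, 13.5% and 2.76%. The members with the highest normoxia levels were Prdx2 (674 ± 197 RPKM), Ahsp (629 ± 412), Bpgm (524 ± 106) and Slc4a1 (172 ± 23.8), and the spreads of the first 3 overlapped. The lowest was Dmtn at 0.729 ± 0.156 RPKM.

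Xpo7 (chromosome 15, 52357852 to 52443055, rn6) had 1745, 2154 and 1170 reads in normoxia, 2337, 2511 and 2245 at day 28 and 3579, 3121 and 3364 at day 56. In CPM, day 56 stood at 134, 131 and 113, above all other libraries. Xpo7 rose against normoxia, with a ratio of mean CPM of 1.66 and a log2 fold change that stood at 0.73 (SE 0.14, adjusted p = 0.0236). The test was passed in 14 of 21 alternatives and missed in 5 of the 9 fits that left out 1 library, namely normoxia replicate 2 (adjusted p = 0.0861) or 3 (0.0915), or day 56 replicate 1 (0.0661), 2 (0.109) or 3 (0.0702). Dmtn lies beside Xpo7 on chromosome 15, with starts 65.1 kb apart.

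**Figure D3:**
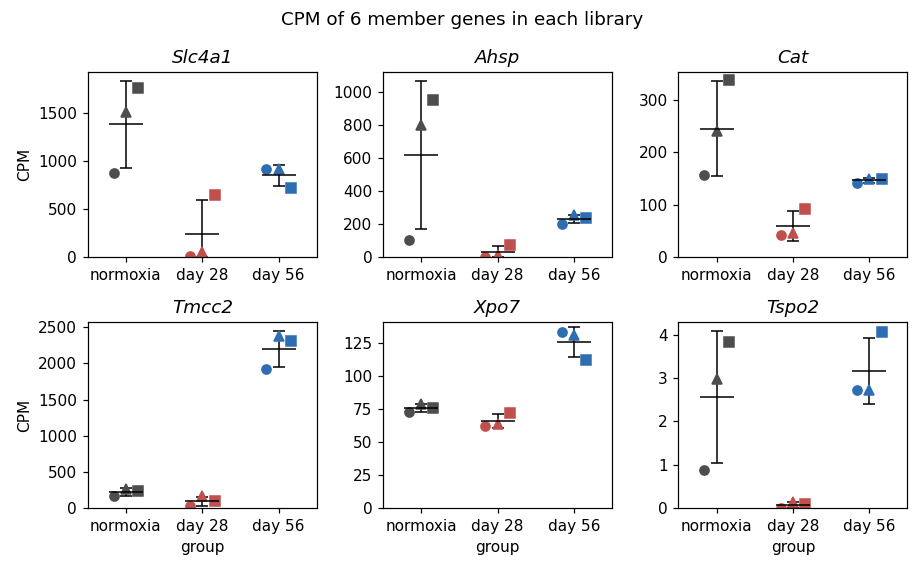
CPM of 6 members in each library on axes that start at 0, with circles, triangles and squares for replicates 1, 2 and 3; the horizontal line is the group mean and the bars 1 SD, cut at 0 where they would go below it. Slc4a1, Ahsp and Cat are lowest at day 28, Tmcc2 and Xpo7 are highest at day 56, and Tspo2 is near 0 at day 28 only.

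The third comparison, day 56 against day 28, shares its libraries with the other two. All 29 log2 fold changes were positive, with a median of 2.07 (all genes -0.01). In 27 of 29 every day 56 library was above every day 28 library, the exceptions being Gypc and Trim58, where 17.8% of all genes were above. The test called 3 members higher and none lower, beside 0.546% of all genes (53 higher, 15 lower). These were Tspo2 (log2 fold change 5.34, SE 0.78, adjusted p = 0.0291), Tmcc2 (4.57, SE 0.56, adjusted p = 0.0195) and Xpo7 (0.93, SE 0.14, adjusted p = 0.0325). DESeq2 called 17 higher (6.23% of all genes). Without day 28 replicate 3 edgeR called 21 members (2.08%) and the median was 4.14, and without normoxia replicate 1, which enters the shared estimate of the spread, 11 (7.89%). Without day 56 replicate 1, 2 or 3 it called none (0.0868%, 0.0236% and 0.0316% of all genes), and without day 28 replicate 1 or 2 it called 1 (0.111% and 0.0793%). With the globin share as a covariate none was called (0% of all genes), and the median was 0.54. Here too the fit cannot separate that share from the day.

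Since the members and the globin genes were low in the same libraries, the reads of each member were also set against the globin-locus reads of its library. These ratios are descriptions without a test, and in day 28 replicate 1 they rest on 316337 globin reads. For 9 members, Add2, Ank1, Bpgm, Epb42, Hemgn, Klf1, Rhd, Slc4a1 and Sptb, the ratio varied less than 3-fold over all 9 libraries, as it did for 0.249% of all genes tested. They were picked by that range. Slc4a1 had 2073, 2076 and 1789 reads per 1000000 globin reads in normoxia, 1391, 1912 and 2695 at day 28 and 2175, 2000 and 1420 at day 56, and the groups overlapped. Add2 ranged only from 295 to 388, although 97.7% of its gene reads in day 28 replicate 1 lay in introns, against 31.3% to 61.2% in normoxia.

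Other members did not keep that ratio. In day 28 replicate 1, 11 members stood at over 10 times their normoxia mean per globin read, where 98.5% of all genes tested did. They were Bnip3l, Cat, Epb41, Epor, Ermap, Gypc, Mxi1, Nfe2, Tal1, Tmcc2 and Xpo7, several of which are made in other blood cells too. Cat had 372, 330 and 343 reads per 1000000 globin reads in normoxia and 5007, 1464 and 385 at day 28. Rhag reached 278 and 210 in day 28 replicates 1 and 2, against 18.2 to 34.3 in normoxia, while its partner Rhd (329 and 396) stayed within its normoxia range of 271 to 567. In day 28 replicate 3, 27 of 29 members were within 2.5-fold of normoxia (48.2% of all genes), the exceptions being Tspo2, lower (0.399 against 2.06 to 4.10), and Xpo7, at 2.501 times the normoxia mean and just past that limit.

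At day 56 the mean ratio was within 2.5-fold of normoxia for 28 of 29 members, all but Tmcc2, and for 92.8% of all genes tested. Tmcc2 had 384, 354 and 242 reads per 1000000 globin reads in normoxia and 4550, 5168 and 4504 at day 56. In day 28 replicates 1 and 2 it had 3556 and 5096, and in replicate 3, with more globin, 372. For 11 members every day 56 library was above every normoxia library on this scale, and for none was every one below, where 17.9% of all genes tested were above and 2.93% below. Kel, for example, went from between 111 and 147 to between 226 and 246, and Trim10 from between 12.7 and 25.2 to between 39.7 and 48.8.

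**Figure D4:**
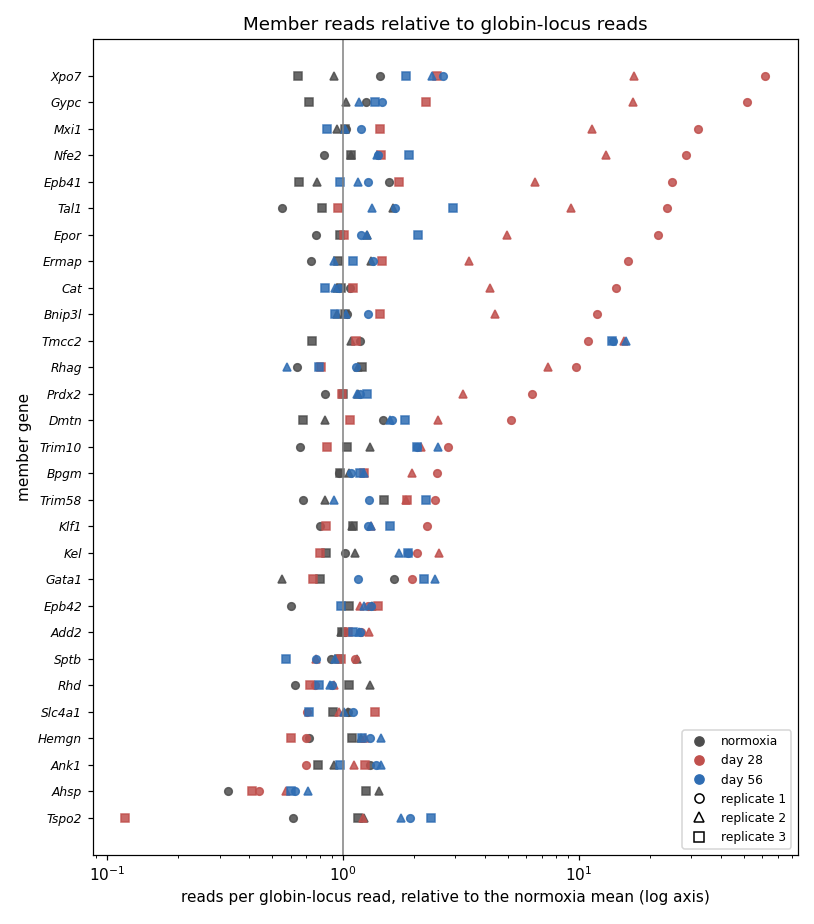
Reads of each member per globin-locus read in each library, relative to that member's normoxia mean, on a log axis; color marks the group and the marker shape the replicate. Gata1 in day 28 replicate 2 and Tspo2 in day 28 replicate 1 had 0 reads and are not drawn. Members from Slc4a1 to Add2 stay near 1 in every library, those from Bnip3l up are far right in day 28 replicates 1 and 2, and Tmcc2 is also far right at day 56.

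Other genes of the same pathways, taken from lists, were set beside the members. Of 13 genes of heme synthesis and mitochondrial iron, 12 had a negative log2 fold change at day 28 (median -0.80, all genes -0.01). Slc25a37, mitoferrin, which brings iron into mitochondria, fell at day 28 (log2 fold change -1.55, SE 0.21, adjusted p = 0.0459), the only gene of that list called there, and passed in 9 of 20 alternatives. It was higher at day 56 than at day 28 (1.32, SE 0.21, adjusted p = 0.0330, passed in 13 of 20). Alas2, the erythroid enzyme that starts heme synthesis, stood at -3.02 on the log2 scale at day 28 (SE 0.90, adjusted p = 0.0986), and Fech, which inserts the iron, -2.77 (SE 0.81, adjusted p = 0.0950). The globin-locus genes had a median of -2.95 at day 28 over 8 tested, and none was called.

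The medians of the wider lists were closer to that of all genes, though single genes in them were far lower at day 28. Of 18 other red cell membrane and skeleton genes, 10 were below 0 at day 28 (median -0.03) and none was called. Among the 3 with the highest mean RPKM, Stom stood at -1.41 (SE 0.51, adjusted p = 0.125), Tpm3 at 0.12 and Add3 at 0.16. At day 56 Slc2a1, the glucose transporter GLUT1, rose (log2 fold change 0.80, SE 0.17, adjusted p = 0.0257, passed in 13 of 21 alternatives), the only gene of its list. Of 22 other erythroid transcription and maturation genes, 13 were below 0 at day 28 (median -0.33). There Riok3 stood at -1.58 (SE 0.38, adjusted p = 0.0796) and Bcl2l1 at -1.80 (SE 0.32, adjusted p = 0.0539), but Ldb1 at 0.27 and Lmo2 at 0.43. Gfi1, a repressor that also acts in myeloid and lymphoid cells, rose at day 56 (log2 fold change 1.00, SE 0.22, adjusted p = 0.0332, passed in 12 of 21), and Bcl2l1, the survival factor BCL-xL, was higher at day 56 than at day 28 (2.26, SE 0.32, adjusted p = 0.0291, passed in 14 of 20). Of 15 other red cell enzymes, 10 were below 0 at day 28 (median -0.54) and none was called. Gpx1, the red cell glutathione peroxidase, stood at -1.96 (SE 0.43, adjusted p = 0.0731). Alox15 stood at -3.85 (SE 1.21, adjusted p = 0.106) and Txn1 at -0.54 (SE 0.41, adjusted p = 0.379).

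Markers of other blood cells moved with the members in part. All 14 platelet markers tested were below 0 at day 28 (median -1.65, none called), and their summed level was 1138 to 4844 CPM in normoxia, 875 to 1393 at day 28 and 2704 to 5219 at day 56. Monocyte markers went the other way, with all 9 above 0 at day 28 (median 1.08, none called) and a summed level of 2085 to 4389, then 3223 to 10291, then 1725 to 2698 CPM. Of 8 neutrophil markers 7 were above 0 at day 28 (median 0.96). T cell markers (median -0.17 over 12), B cell markers (-0.44 over 9), NK cell markers (-0.30 over 8) and basophil and mast cell markers (0.44 over 5) had none called at day 28. At day 56 Cd28, a T cell co-receptor, rose (log2 fold change 1.20, SE 0.23, adjusted p = 0.0208) and Cd79b, part of the B cell receptor, fell (-1.60, SE 0.33, adjusted p = 0.0257), and they passed in 15 and 14 of 21 alternatives. They were the only genes of their lists called there. The T cell list had a median of 0.07 at day 56 with 6 of 12 genes below 0, and the B cell list a median of -0.27 with 7 of 9 below 0. T, B, NK and monocyte markers, which define the labelled mononuclear cells, were present in every group, beside the globin reads. The part of any of these cell types in the members' values was not tested.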

How the data were processed

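RNA sequencing covered 9 libraries in 3 groups of 3. Per the file headers, the authors deposited 1 table with, for each Ensembl gene and library, exon read counts, uniquely mapped exon counts, exon plus intron counts and RPKM. In the replicate 1 columns the deposited values are formally estimated counts because of a fraction on a broken line; they are whole on every intact line and needed no rounding. Per the submitters' processing notes the build was rn6 and FastQC was used; the aligner is not given in the sources used here. Of 22085 lines, 8 were broken and left out, and 81 further columns of values per sample were not used.

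Exon counts were tested with edgeR 4.0.16 (robust glmQLFit and glmQLFTest, TMM, filterByExpr) in R 4.3.3 on all 9 libraries with 1 mean per group, adjusted by Benjamini-Hochberg over 12447 genes at 0.05; all 29 members passed the filter. The SE came from the F statistic. The common biological coefficient of variation was 0.280. Both comparisons with normoxia share its libraries. A count of 3 reads, the limit that 0 reads allow, was 0.0762 to 0.195 CPM; it covers counting error only, since reads carry no molecular identifiers. No pair of replicates agreed within sampling noise. The fit was also run on simulated data with a smaller spread than in these libraries, which does not show its power here. Promoters came from RefSeq's GRCr8 table. All members were named; of each further list, up to 3 genes with the highest mean RPKM and any called gene could be. The members, lists and alternatives (other factors, DESeq2 1.42.0, no filter, unique reads, covariates, the replicate block, libraries left out) were chosen with earlier results of these data known. The numbers of the replicates were checked and gave no sign that they pair the libraries, but with 3 libraries a group the check cannot exclude it.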

Additional observations from a re-analysis of the deposited data

Results flagged for a closer look

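For 3 members the change from normoxia differed between day 28 and day 56 by the test of the difference itself, edgeR's quasi-likelihood test of day 56 against day 28 with 3 libraries a group. Tmcc2 was higher at day 56 by 4.57 on the log2 scale (adjusted p = 0.0195), Tspo2 by 5.34 (adjusted p = 0.0291) and Xpo7 by 0.93 (adjusted p = 0.0325), in 3 of 3 libraries each. Tspo2 rested on 8 reads at day 28.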

How the results depend on the processing

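The counts of members called moved with several settings; the cause was not tested. At day 28 the count of members called was 2 with upper-quartile factors (all genes: 31 higher, 48 lower of 12447). It was also 2 without the filter (59 higher, 92 lower of 16962) and on uniquely mapped reads (29 higher, 43 lower of 11963). DESeq2 called 21 members (9.79% of all genes), and the replicate block 10 (52 higher, 171 lower of 12447). Without normoxia replicate 1 and day 28 replicate 3 together the count was 27 (46.4%). It was 0 to 23 when 1 library was left out (45.2% of all genes in the fit with 23). At day 56 it was 1 with only the 2 groups compared (all genes: 218 higher, 130 lower of 12055). In the libraries coded 061 to 064 it was 16 (48.6% of all genes). Without normoxia replicate 1 and day 28 replicate 3 it was 9 (2917 higher, 2873 lower of 12650). With 1 library left out it was 0 to 5 (43% of all genes in the fit with 5). The 9 and the 5 were smaller shares than those of all genes. For day 56 against day 28 the count was 17 with DESeq2 (6.23% of all genes) and 0 with the globin covariate (0%). It was 7 with only the 2 groups (all genes: 380 higher, 210 lower of 12281). The replicate block called 10 (162 higher, 24 lower of 12447). Without the 2 libraries it was 25 (685 higher, 651 lower of 12650), and 0 to 21 with 1 left out (2.08% of all genes in the fit with 21). The replicate numbers gave no sign of pairing (same-number correlations of -0.15 to 0.17, over 0.1 in 3 of 9 pairs). Of the 9 libraries, 1 correlated best with its own number in both other groups. With 3 libraries a group this cannot exclude pairing. Over single members, 1477 alternative values kept direction and call, 29 lost the call, 209 gained it and 51 changed sign, all 51 without a call. With the intron covariate the sign turned at day 28 for Epb42 (0.022), Gypc (0.030), Nfe2 (0.16), Tal1 (0.047) and Trim58 (0.53). At day 56 it turned for Add2 (0.93), Ahsp (1.11), Ank1 (0.90), Bnip3l (0.27), Bpgm (0.87), Epb42 (1.54), Epor (0.68), Ermap (0.45), Gypc (0.11), Hemgn (1.34), Klf1 (1.19), Prdx2 (0.66), Rhd (0.97), Slc4a1 (0.84), Sptb (0.53) and Trim58 (1.64), and for Car2 (0.76). With the globin covariate it turned for Trim58 at day 28 (0.19), for Ank1 (0.088), Epor (0.0063), Klf1 (0.028) and Trim58 (0.16) at day 56, and for Slc4a1 (-0.36) and Trim58 (-0.032) between the days. At day 56 it also turned for Epor with only the 2 groups (0.00056), for Hemgn (0.073), Klf1 (0.0037) and Trim58 (0.080) with the replicate block, for Nfe2 in codes 061 to 064 (-0.18), and without the 2 libraries for Nfe2 (-0.31), Tal1 (-0.075) and Tspo2 (-0.077). With 1 library left out, day 56 values ran from -0.43 to 0.22 for Epor, -0.22 to 0.0032 for Gypc, -0.65 to 0.075 for Hemgn, -0.51 to 0.21 for Klf1, -0.31 to 0.37 for Nfe2, -0.17 to 0.86 for Tal1, -0.70 to 0.67 for Trim58 and -0.079 to 0.72 for Tspo2. Depth limits Tspo2, Dmtn, Epor, Ermap and Gata1, each with 58 reads or fewer in every day 28 library.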
